A study of Mus musculus with 6 samples.

Results

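The guanylate-binding proteins (Gbp genes) were followed in bone marrow stromal cells (BMSCs) of wild-type (WT) mice and of mice without the microRNA miR-188 (KO188). Of the 8 listed genes, Gbp2 to Gbp9, 6 had a probe set that the platform annotation pairs with 1 symbol only, among 19938 genes tested in all. These were Gbp3, Gbp5 and Gbp7 of the chromosome 3 cluster and Gbp4, Gbp8 and Gbp9 of the chromosome 5 cluster. Gbp2 and Gbp6 had no such probe set and have no value of their own here. Where a gene had several such probe sets, 1 was chosen by the highest mean over the 6 arrays. The genes were listed by family with earlier results of these data known, so their differences between the groups are given as a description. A further 2 family genes outside the list, Gbp2b and Gbp11, also had a single-symbol probe set and are set beside them.

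Guanylate-binding proteins are large GTPases of the dynamin superfamily, and interferon-gamma is their classical inducer, with type I interferons also able to raise them. They gather on the vacuoles of intracellular parasites and bacteria and on bacterial surfaces, help to break these open, and feed the caspase pathways that sense bacterial lipopolysaccharide. They are best known in macrophages, and stromal cells and fibroblasts also make them when exposed to interferon.

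The samples were 3 WT and 3 KO188 cultures of BMSCs from C57BL/6 mice 6 months old, each read on 1 Affymetrix array. The osteogenic medium of both groups held dexamethasone at 100 nM, beta-glycerophosphate at 10 mM and L-ascorbic acid-2-phosphate at 0.05 mM, and the labels name no interferon. The sample titles call the arrays biological replicates. Neither the way the knockout was made nor whether each array stands for its own mouse is given in the sources used. The p-values therefore set each difference against the spread between these samples only, which may not be the spread between mice. No label names a batch holding both groups, so a culture effect common to the KO188 arrays and the genotype cannot be told apart. The labelled cell type was checked against stromal markers: bright were Col1a1 (12.90 ± 0.02 in WT and 13.11 ± 0.02 in KO188, log2, SD, n = 3 each) and Pdgfrb (12.34 ± 0.02 and 12.49 ± 0.04), whereas the marrow stromal receptor gene Lepr was dim in both (5.18 ± 0.07 and 5.12 ± 0.03). The same list of 14 measured stromal and osteoblast markers differed between the groups. By the limma test given below, 8 were higher and 1 was lower in KO188, against 13.3% and 16.5% of all tested genes. Alpl, the alkaline phosphatase of early osteoblasts, rose by 2.08 and Pdgfra rose by 0.87, while the ectonucleotidase gene Nt5e fell by 0.85. The osteoblast genes Ibsp (5.18 ± 0.03 and 5.23 ± 0.02) and Sp7 (6.41 ± 0.08 and 6.77 ± 0.16) were near or under the level of unexpressed genes given next. As a rough guide to an unexpressed gene, the receptors of smell and pheromones (1194 olfactory or vomeronasal genes) had a 95th percentile of 6.72. A value at or below it has no reliable size.

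All 6 measured Gbp genes of the list were higher in KO188, and in each of them every KO188 array lay above every WT array. The rises ran from 1.28 to 3.75 on the log2 scale, or 2.42-fold to 13.4-fold, with a median of 2.94 (7.70-fold), while the median change of all tested genes was -0.01. In the limma fit over all genes, 6 of 6 passed as higher at an adjusted p of 0.05, with adjusted p from 2.6e-08 to 2.4e-05. Over all tested genes 13.3% passed as higher and 18.8% had groups that did not overlap with KO188 higher. A rise over 2 was met by 5 of the 6 genes and by 0.436% of tested genes, and a rise over 1 by 6 of 6 and by 1.10%. These shares are printed as the background only, since the family was chosen with such results known.

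**Figure D1:**
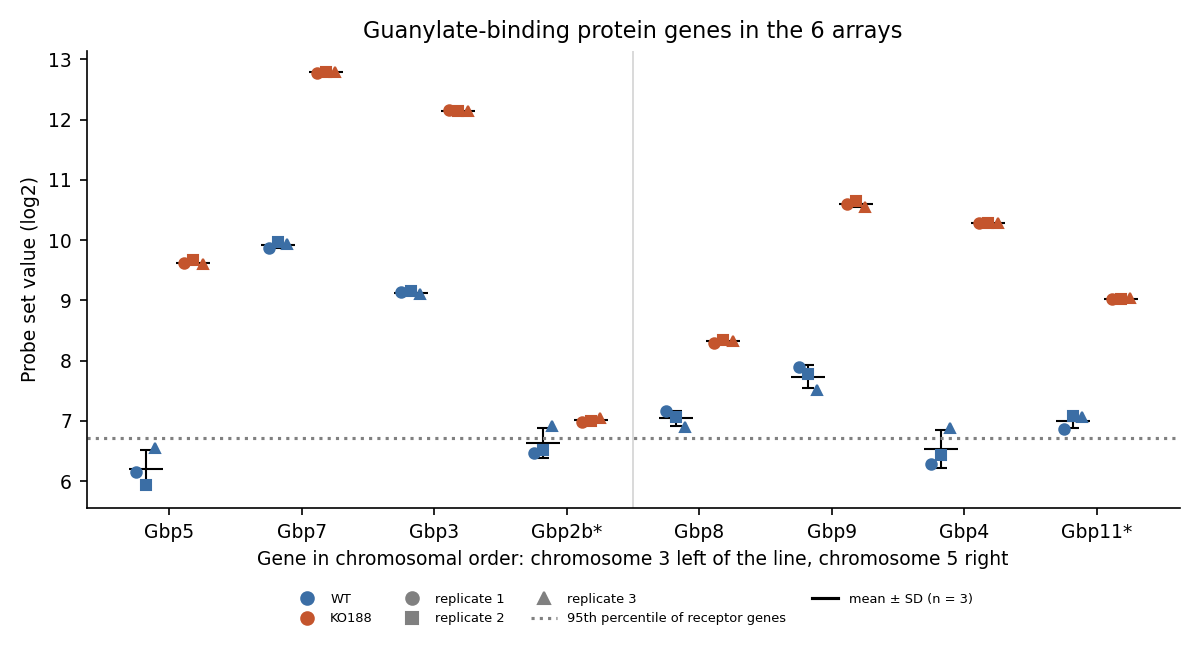
Log2 probe set values of the 8 measured Gbp genes in the 6 arrays, in chromosomal order, with WT in blue, KO188 in orange, a marker shape for each replicate and black bars for mean ± SD (n = 3); a star marks the 2 genes outside the list and the dotted line is the receptor guide of 6.72. The KO188 points lie above the WT points in every gene, and the points of Gbp2b lie closest together.

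On chromosome 3 the measured order along the cluster is Gbp5, Gbp7, Gbp3 and Gbp2b. Gbp5, known for promoting assembly of the NLRP3 inflammasome, read 6.15, 5.93 and 6.55 in the WT arrays and 9.61, 9.66 and 9.61 in the KO188 arrays. It thus went from the range of unexpressed receptor genes in all 3 WT arrays to well above it in KO188, and the log2 change was 3.42 (limma SE 0.143, adjusted p = 1.1e-05). Because the WT end of Gbp5 was under the guide, its 10.7-fold rise is inexact. Gbp7, which has been linked to the delivery of oxidase subunits to pathogen vacuoles, read 9.87, 9.97 and 9.93 in WT and 12.78, 12.80 and 12.79 in KO188. All 6 Gbp7 values were far above the guide, the groups were 2.81 apart at their nearest arrays, and the change was 2.86 (SE 0.034, adjusted p = 4.3e-08). Gbp3, another member of the cluster whose loss as a block leaves mice open to Toxoplasma, read 9.14, 9.15 and 9.10 in WT and 12.16, 12.14 and 12.14 in KO188. Wild-type cells therefore already held Gbp3 and Gbp7 signal well above the guide, and the change of Gbp3 was 3.02 (SE 0.027, adjusted p = 2.6e-08).

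Gbp2b, formerly called Gbp1 and long known for alleles that differ between inbred strains in how far interferon raises them, had the smallest change of the family. It read 6.46, 6.52 and 6.92 in WT and 6.98, 7.00 and 7.06 in KO188, so that the nearest arrays of the groups were only 0.06 apart. Its change was 0.38 (SE 0.117, limma adjusted p = 0.054) and did not pass, with 2 of the 3 WT arrays under the guide. Without WT replicate 3 Gbp2b passed, with a change of 0.52 (limma adjusted p = 9.8e-04). It also passed with trend and robust moderation (adjusted p = 0.024), with the replicate number as a block (0.030) and with tied genes left out (0.037), and its adjusted p lay between 9.8e-04 and 0.17 in 13 alternatives.

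The bases before the annotated starts of the chromosome 3 genes are shown because Gbp3, Gbp5 and Gbp7 rose, Gbp2b did not pass the test, Gbp2 has no value of its own, and interferon acts on this family through known promoter elements. The sequences are those of RefSeq on build GRCm38.p6, plus strand, 5′ to 3′, 250 bases ending at the base before the start, and the table held 5 Gbp genes: Gbp2, Gbp2b, Gbp3, Gbp5 and Gbp7. Capitals mark matches to the core of the interferon-stimulated response element (ISRE), TTTCNNTTTC with GAAANNGAAA on the opposite strand, and to the core of the gamma-activated site (GAS), TTCNNNGAA, which reads the same on both strands. The windows are Gbp5 at chr3:142496684-142496933, Gbp7 at chr3:142530086-142530335, Gbp3 at chr3:142559794-142560043, Gbp2b at chr3:142594597-142594846 and Gbp2 at chr3:142620413-142620662.
Gbp5: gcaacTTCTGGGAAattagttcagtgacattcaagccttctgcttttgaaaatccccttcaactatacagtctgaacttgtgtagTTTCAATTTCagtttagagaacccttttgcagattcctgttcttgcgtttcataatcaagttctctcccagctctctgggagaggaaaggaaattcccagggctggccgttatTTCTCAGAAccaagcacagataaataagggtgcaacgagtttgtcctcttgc
Gbp7: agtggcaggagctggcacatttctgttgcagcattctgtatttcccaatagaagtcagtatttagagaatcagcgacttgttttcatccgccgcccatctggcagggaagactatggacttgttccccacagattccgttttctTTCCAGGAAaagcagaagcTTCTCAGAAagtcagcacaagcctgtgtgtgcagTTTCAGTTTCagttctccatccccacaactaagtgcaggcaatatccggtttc
Gbp3: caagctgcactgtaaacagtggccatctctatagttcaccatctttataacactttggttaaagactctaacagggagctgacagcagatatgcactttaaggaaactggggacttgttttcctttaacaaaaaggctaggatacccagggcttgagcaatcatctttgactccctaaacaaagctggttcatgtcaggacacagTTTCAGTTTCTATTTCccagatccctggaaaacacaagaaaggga
Gbp2b: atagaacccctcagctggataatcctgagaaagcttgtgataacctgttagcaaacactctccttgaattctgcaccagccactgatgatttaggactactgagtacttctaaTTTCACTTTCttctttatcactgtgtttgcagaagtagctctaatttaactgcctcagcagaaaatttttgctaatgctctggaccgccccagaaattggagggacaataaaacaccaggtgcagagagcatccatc
Gbp2: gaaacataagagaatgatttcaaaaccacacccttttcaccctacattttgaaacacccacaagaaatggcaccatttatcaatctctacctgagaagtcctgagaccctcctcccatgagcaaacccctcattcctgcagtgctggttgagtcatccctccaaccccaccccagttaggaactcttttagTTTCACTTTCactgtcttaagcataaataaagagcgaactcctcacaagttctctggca

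Each of these 5 windows held an ISRE core on the gene strand, against 978 of 32851 RefSeq promoter windows of the same length (2.98%). In Gbp7 it began 53 bases before the start, in Gbp2 59 bases and in Gbp3 45 bases, where a second match overlapped the first and began at 39. The matches of Gbp5 (165 bases) and Gbp2b (137 bases) lay farther out. A GAS core was present in 2 of the 5 genes, against 2306 of all windows (7.02%). Gbp5 had GAS cores beginning 245 and 52 bases before the start and Gbp7 had them at 106 and 87, with no overlap with the ISRE cores. The windows of Gbp2, Gbp2b and Gbp3 had no match to the GAS letters. A second annotated start of Gbp3 had neither core in its window. Among other tested genes with a window, the ISRE core was found in 25 of the 60 that rose by more than 2 (41.7%) and in 346 of the 10932 that did not pass the test (3.17%). The GAS core was found in 7 of the same 60 (11.7%) and in 880 of the 10932 (8.05%). These matches are letters in a window and show neither binding nor cause.

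**Figure D2:**
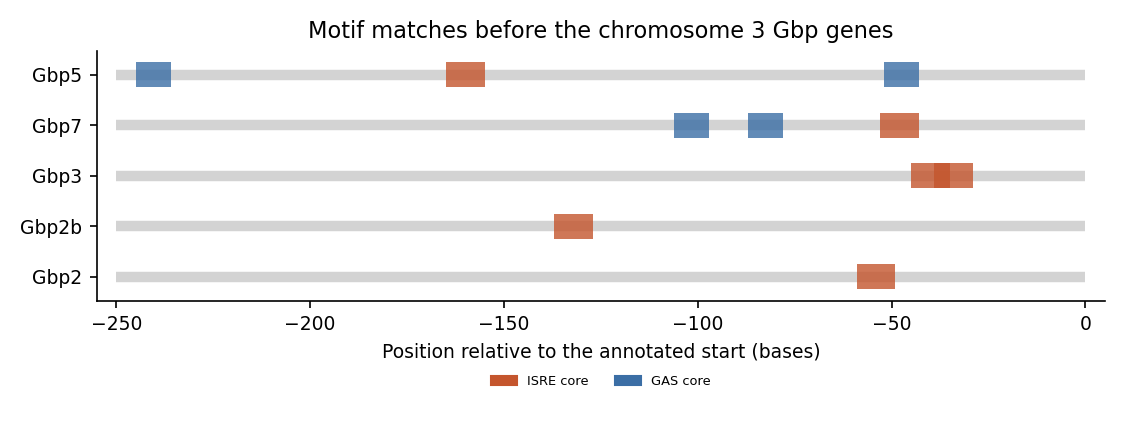
Positions of ISRE cores (orange) and GAS cores (blue) in the 250 bases before the annotated start of 5 chromosome 3 Gbp genes, in chromosomal order from top to bottom; the x axis is the distance from the start in bases. The ISRE cores of Gbp7, Gbp3 and Gbp2 begin 53, 45 and 59 bases before the start, and those of Gbp5 and Gbp2b at 165 and 137.

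On chromosome 5 the measured order is Gbp8, Gbp9, Gbp4 and Gbp11, and the 3 listed genes rose by 1.28 to 3.75, beside 2.86 to 3.42 for the 3 of chromosome 3. Gbp4, an interferon-induced member of the cluster formerly called Mpa2, read 6.28, 6.44 and 6.88 in WT and 10.28, 10.28 and 10.28 in KO188. Its change of 3.75 (limma SE 0.142, adjusted p = 7.3e-06) was the largest of the family, and its WT mean of 6.53 lay under the guide, so the size is inexact. Gbp9, whose function is little described, read 7.90, 7.78 and 7.52 in WT and 10.59, 10.66 and 10.56 in KO188, a change of 2.87 (SE 0.093, adjusted p = 3.5e-06). Gbp8, also little described, read 7.16, 7.07 and 6.90 in WT and 8.29, 8.34 and 8.33 in KO188. Its rise of 1.28 (SE 0.063, adjusted p = 2.4e-05) was the smallest among the listed genes, with groups that still lay 1.13 apart at their nearest arrays. Gbp11, which RefSeq annotates as a transcribed pseudogene, read 6.87, 7.08 and 7.07 in WT and 9.02, 9.02 and 9.04 in KO188, a change of 2.02 (SE 0.060, adjusted p = 2.3e-06). The Gbp genes of this cluster are close copies of one another, so probes annotated to one can take up signal from another. Their separate values are uncertain for that reason.

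Ordered by change, the 8 family genes ran Gbp4, Gbp5, Gbp3, Gbp9, Gbp7, Gbp11, Gbp8 and Gbp2b. The places of Gbp4, Gbp5 and Gbp2b are inexact, since their WT means lay under the guide. Neighbours in this order were compared through the difference between both genes within each array, over 7 pairs. As the pairs follow the order of the changes themselves, and 3 against 3 arrays allow no two-sided exact permutation p under 0.10, no pair could pass and the comparison describes spread only. The values overlapped between the groups for Gbp9 and Gbp7, whose changes differed by 0.01, and for Gbp3 and Gbp9, whose changes differed by 0.15 (exact permutation p = 0.90 and 0.30, adjusted over the pairs by Benjamini-Hochberg 0.90 and 0.35). They did not overlap in the other 5 pairs (exact permutation p = 0.10, adjusted 0.14), 2 of which, Gbp7 with Gbp11 (0.84) and Gbp11 with Gbp8 (0.74), hold only genes with WT means above the guide.

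**Figure D3:**
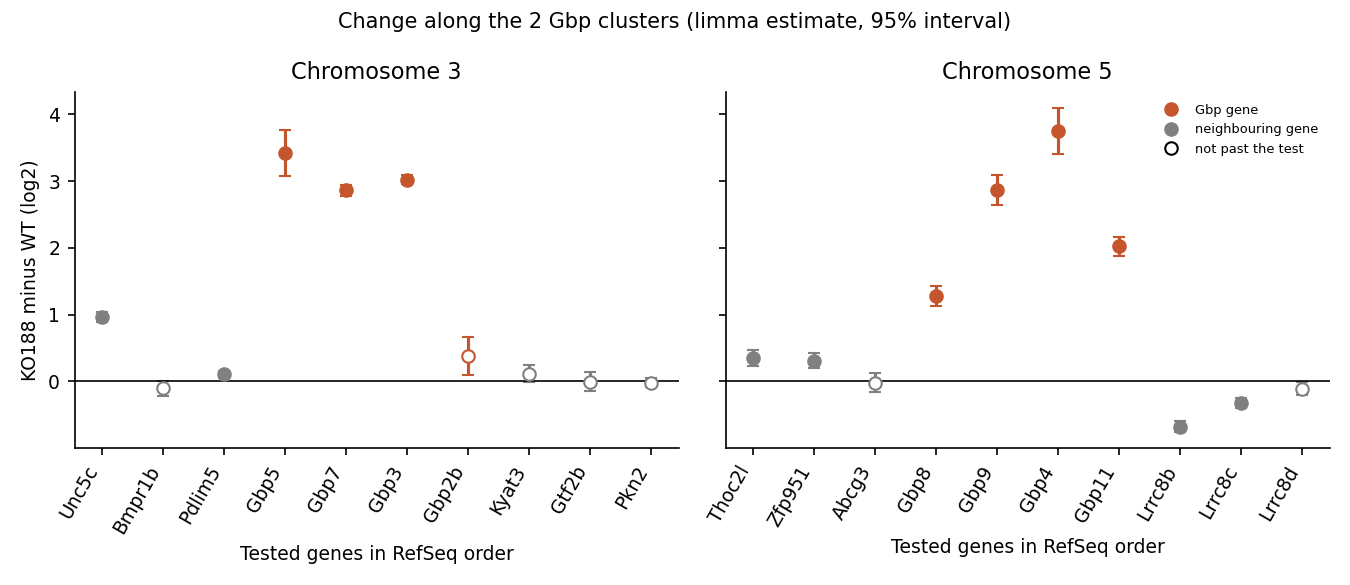
Change from WT to KO188 (log2, limma estimate with 95% interval not adjusted for the number of genes) along the chromosome 3 and chromosome 5 Gbp clusters, with the 3 nearest tested genes on each side in grey, in RefSeq order; open circles did not pass the test. The Gbp genes reach 3.42 on chromosome 3 and 3.75 on chromosome 5, while the flanking genes lie between -0.68 and 0.96.

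The genes that flank the clusters changed by -0.68 to 0.96. Of the 12 tested neighbours 4 passed as higher, 2 as lower and 6 did not pass, against 29.8% of all tested genes passing in either direction. Next to the chromosome 3 cluster, the aminotransferase gene Kyat3 changed by 0.11 (limma adjusted p = 0.18), the general transcription factor gene Gtf2b by -0.01 (0.96) and the kinase gene Pkn2 by -0.02 (0.65), and none of these passed. On its other side the netrin receptor gene Unc5c rose by 0.96 and Pdlim5 rose by 0.10, while the BMP receptor gene Bmpr1b (-0.10, adjusted p = 0.15) did not pass. Beside the chromosome 5 cluster, Lrrc8b and Lrrc8c, which encode subunits of volume-regulated anion channels, fell by 0.68 and 0.33, and Lrrc8d (-0.11, adjusted p = 0.086) did not pass. At the other end Thoc2l rose by 0.35 and Zfp951 rose by 0.31, and the transporter gene Abcg3 (-0.02, adjusted p = 0.85) did not pass. Pdlim5 no longer passed with each array centred on its median (limma adjusted p = 0.18), with the replicate block (0.074) and without WT replicate 2 (0.056) or KO188 replicate 3 (0.052). Bmpr1b passed as lower with median centring (-0.15, adjusted p = 0.030) and quantile normalization (-0.14, 0.030). Lrrc8d passed as lower with median centring (adjusted p = 0.029), quantile normalization (0.027), dimmer genes left out (0.027) and without WT replicate 2 (0.026).

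Within the groups, the Gbp genes had larger SDs over the WT arrays than over the KO188 arrays. The WT standard deviation exceeded that of KO188 in all 8 family genes, against 42.1% of all tested genes and 17 of the 18 measured genes of a list of other interferon-stimulated genes. It ran from 0.03 to 0.31 in WT and from 0.0014 to 0.05 in KO188. The WT SDs of Gbp5 and Gbp4, both 0.31, lay above the 95th percentile of all genes (0.13), at the 99.9th percentile. WT replicate 3 was the highest of the WT arrays for Gbp4, Gbp5 and Gbp2b and the lowest for Gbp3, Gbp8 and Gbp9, so it did not shift the family in one direction. The WT means of Gbp4, Gbp5 and Gbp2b lay under the guide, so their spread in WT has no reliable size. Identical values occurred in 3 of the 8 genes: Gbp3 in KO188 replicates 2 and 3, Gbp4 in KO188 replicates 1 and 3, and Gbp11 in KO188 replicates 1 and 2. Such ties within a group were present in 5285 tested genes (26.5%), and a tie lowers the SD of its group. No source used here says whether values were adjusted after RMA, so the SDs, standard errors and p-values hold for the values as deposited.

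**Figure D4:**
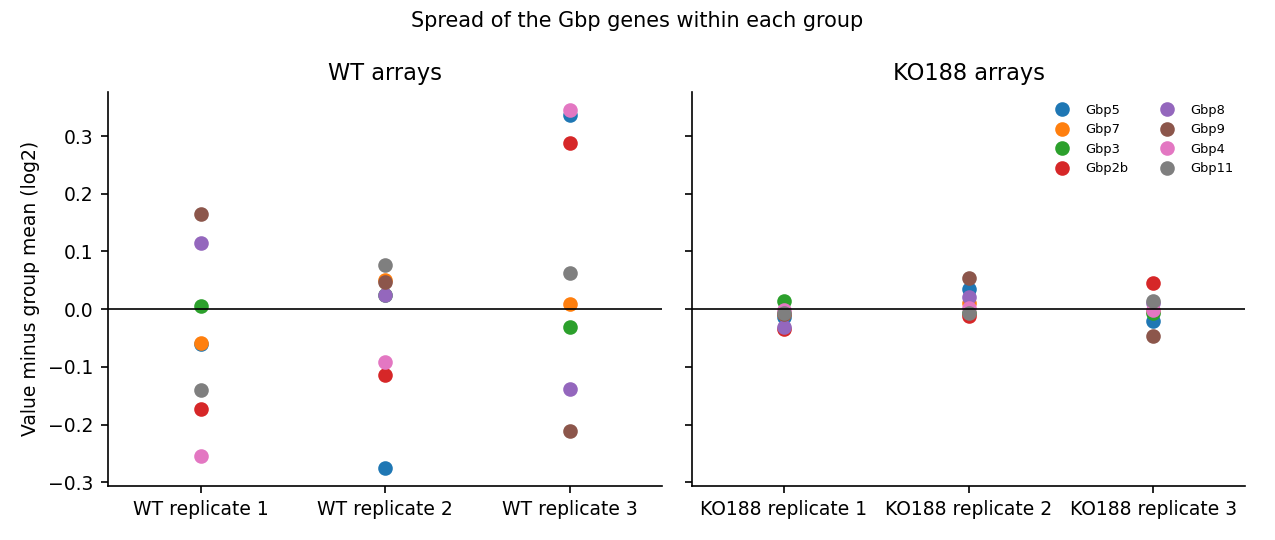
Deviation of each of the 8 Gbp genes from its group mean (log2) in the 3 WT arrays (left) and the 3 KO188 arrays (right), on 1 scale; each colour is a gene. The WT points spread further than the KO188 points, and in WT replicate 3 Gbp4, Gbp5 and Gbp2b lie above 0 while Gbp3, Gbp8 and Gbp9 lie below it.

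Of 8 measured interferon genes, 2 passed the limma test as higher and 0 as lower, with a median of 0.11. The list of ligands also held the interleukin gene Il27, which did not pass (0.01), and over all 9 its median was 0.05. Over all tested genes 13.3% passed as higher and 16.5% as lower, and the counts of each pathway list are to be read against these shares. Ifnb1, the interferon-beta gene, read 6.28, 6.31 and 6.36 in WT and 7.46, 7.53 and 7.44 in KO188, a rise of 1.16 (SE 0.037, limma adjusted p = 3.3e-06). Ifna4, an interferon-alpha gene with close paralogs, read 6.01, 6.11 and 6.26 in WT and 8.16, 7.85 and 7.82 in KO188, a rise of 1.82 (SE 0.104, adjusted p = 4.6e-05). The WT values of both lay under the guide in all 3 arrays and the KO188 values above it, so the sizes are inexact. Ifng, the gene of the classical inducer of this family, was 6.93 ± 0.06 in WT and 6.84 ± 0.08 in KO188 (SD, n = 3 each, change -0.09, limma adjusted p = 0.25) and did not pass. Both means were only just above the guide of 6.72, so whether Ifng was expressed in either group is uncertain.

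Among the 7 receptor and Janus kinase genes 1 rose and 2 fell, counts near the 13.3% and 16.5% of all genes, with a median of 0.02. Jak2, a kinase that serves the interferon-gamma receptor, rose by 0.77. The receptor genes Ifngr2 and Ifnar1 fell by 0.15 (Ifngr2 by 0.095 with quantile normalization) and 0.14, and the Ifnar1 call was lost in 4 of 14 alternatives, the fits without WT replicate 1 (adjusted p = 0.13) or 3 (0.12) and without KO188 replicate 2 (0.11) or 3 (0.11). Ifngr1 (-0.03), Ifnar2 (0.03), Jak1 (0.02) and Tyk2 (0.07) did not pass. Of 10 transcription factor genes of the pathway 8 rose and 0 fell, with a median of 0.74. Irf7, which amplifies type I interferon production, rose by 3.59, and Stat2 and Irf9, partners in the complex that binds the ISRE, rose by 2.41 and 1.39. Irf1, a factor needed for full induction of several Gbp genes, rose by 1.01, from 10.24, 10.27 and 10.26 to 11.28, 11.27 and 11.24. Its change lay between 0.70 and 1.02 in 14 alternatives. Irf2 rose by 0.77, Nlrc5 by 0.70 (1.49 as the mean of its probe sets), Batf2 by 0.51 and Stat3 by 0.23, whereas Irf8 (0.01) and Ciita (0.05) did not pass. Among 8 inhibitors of the pathway 2 rose, Usp18 by 2.68 and Socs1 by 0.73, and 2 fell, Ptpn6 by 0.13 and Ptpn11 by 0.13, beside 13.3% and 16.5% of all genes. Each of those falls lost its call in 6 alternatives, Ptpn6 in 5 of the 6 fits that left out 1 array (adjusted p up to 0.13) and Ptpn11 in 4 of them (up to 0.095).

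The partner GTPases of the immunity-related (IRG) family, with which Gbp proteins load onto vacuoles, were measured in 4 of 13 entries. Iigp1, an effector IRG, rose by 3.69 and Irgm1, a regulator of the effectors, rose by 1.43, while Irgc1 (0.03) and Irgq (-0.09), which are not known as interferon-induced, did not pass. The atlastins, the closest GTPase relatives of this family and not known as interferon-induced, changed by 0.10 in Atl1 (limma adjusted p = 0.096) and by -0.01 in Atl3 (0.82), and neither passed.

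Of 10 genes of the inflammasome and lipopolysaccharide sensing pathway, where Gbp proteins act, 5 rose and 1 fell, with a median of 0.31. These counts stand beside 13.3% passing as higher and 16.5% as lower over all tested genes. Casp1 rose by 1.57 and Casp4, the caspase that senses cytosolic lipopolysaccharide, rose by 1.25, from 9.30, 9.27 and 9.26 to 10.61, 10.49 and 10.47. Gsdmd, the gene of the pore-forming substrate of both, rose by 0.99, the cytokine gene Il18 rose by 0.94 and the DNA sensor gene Aim2 rose by 0.57. Nek7, a partner of the NLRP3 inflammasome, fell by 0.50. Nlrp3 (-0.14), Nlrc4 (-0.01), the adaptor gene Pycard (-0.02) and Il1b (0.06) did not pass, and Nlrp3, Nlrc4 and Il1b had means under the guide. Nlrp3 passed as lower with median centring (limma adjusted p = 0.033), quantile normalization (0.049) and without KO188 replicate 2 (0.021).

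Genes of ATG8 conjugation, which help Gbp proteins find vacuoles, passed as higher in 1 and as lower in 2 of 11 measured, counts near the shares of all genes (13.3% and 16.5%), with a median of 0.01. Atg16l1 rose by 0.29 and Atg5 fell by 0.26. Gabarapl2 fell by 0.12, a call lost in 7 of 14 alternatives, among them the mean of its probe sets (-0.03, adjusted p = 0.85) and quantile normalization (-0.06, 0.16), and the fits without WT replicate 1 (0.096) or 3 (0.076) and without KO188 replicate 2 (0.076) or 3 (0.069). The prenylation genes fell in 5 of 8 and rose in 1, beside 16.5% and 13.3% of all genes, with a median of -0.12. The list joins enzymes that attach lipids to proteins, among them some Gbp proteins, with others that act on Rab proteins (Rabggtb) or process proteins once the lipid is on (Rce1 and Zmpste24). Fnta and Fntb, which encode subunits of the enzymes that attach lipids, fell by 0.35 and 0.40, and Pggt1b, another such subunit gene, rose by 0.19. Rabggtb fell by 0.14, Rce1 fell by 0.10 and Zmpste24 fell by 0.17. The Rce1 call was lost in 5 of the 6 fits with 1 array left out (adjusted p up to 0.089) and the Rabggtb call in 4 of them (up to 0.078), and the Zmpste24 call was lost with the mean of its probe sets (0.13).

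**Figure D5:**
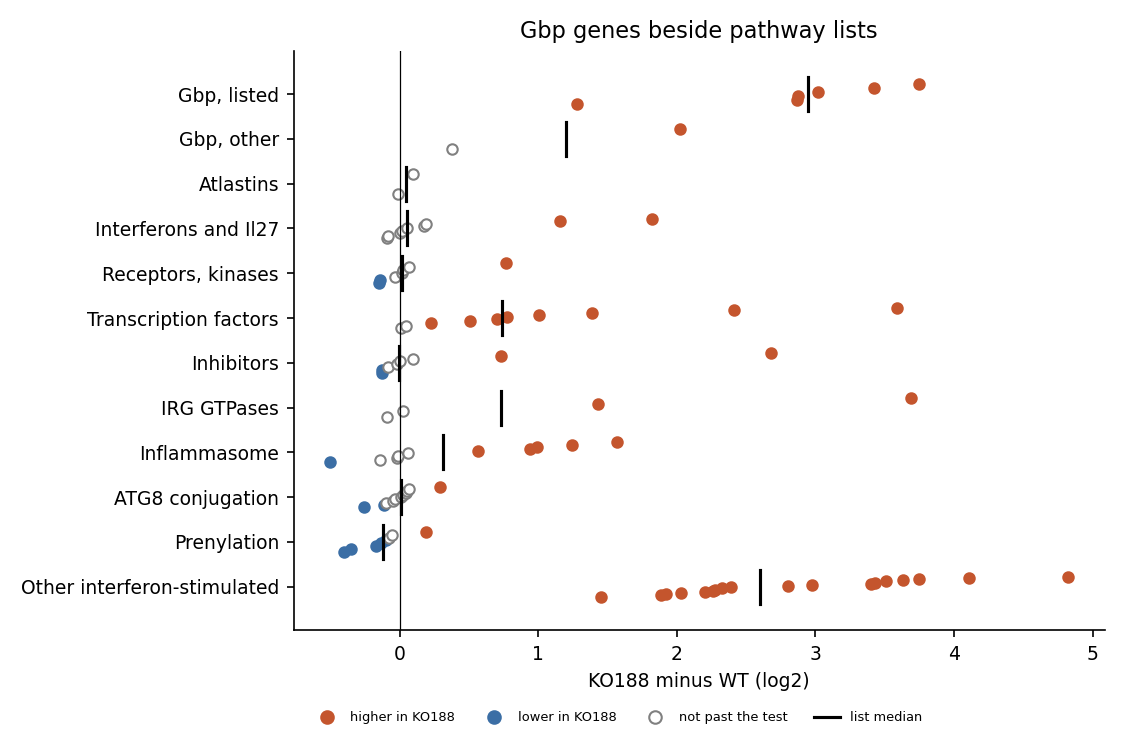
Change from WT to KO188 (log2) of each measured gene, by list; orange points passed as higher, blue as lower, open points did not pass, and the black bar is the list median. The listed Gbp genes have a median of 2.94 beside 2.60 for the other interferon-stimulated genes, 0.74 for the transcription factors and 0.02 for receptors and kinases.

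The 18 measured genes of a list of other interferon-stimulated genes all passed as higher, by 1.45 to 4.82 with a median of 2.60. Over all tested genes 13.3% passed as higher. That list too was made with earlier results of these data known, so its count and range are a description only. The listed Gbp genes (median 2.94) lay within this range or, for Gbp8, below it. Likeness to the mean profile of the 6 listed Gbp genes was measured as the Euclidean distance over the 6 arrays between deviations from each WT mean. The 5 nearest named genes outside the family were Phf11d (distance 0.18, change 2.77), Ifi207 (0.18, change 2.93), Tap1 (0.20, change 2.97), Cmpk2 (0.21, change 2.98) and Parp14 (0.21, change 2.87). Their order is close and rests on 6 arrays that mostly reflect 1 difference between groups.

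Marrow macrophages and lymphocytes also express Gbp genes, and in bulk RNA a change in the number of such cells cannot be told apart from a change per cell. The counts of the marker lists that follow stand beside 13.3% passing as higher and 16.5% as lower over all tested genes. Of 16 macrophage markers 1 rose, Mpeg1 by 1.32 from a WT mean of 5.72 under the guide, and 0 fell, with a median change of -0.02. The mean over that list, Mpeg1 included, ran from 6.61 to 6.65 in WT arrays and from 6.66 to 6.72 in KO188 arrays. In 9 of the 16 the mean was at or under the guide, among them Adgre1, Csf1r, Itgam, Ptprc and Aif1. Markers above it included Cd68 (8.39 ± 0.08 in WT and 8.54 ± 0.08 in KO188, limma adjusted p = 0.086) and Cd14 (7.85 ± 0.10 and 7.58 ± 0.15, adjusted p = 0.060). Neither passed, and they moved in opposite directions, but every KO188 array lay above every WT array in Cd68. Granulocyte markers passed the limma test in 0 of 10, with list means from 6.01 to 6.03 in WT and from 6.04 to 6.07 in KO188. Lymphocyte markers passed in 1 of 13, Il2rb (0.26), with list means from 6.02 to 6.04 in WT and from 5.92 to 6.05 in KO188. Endothelial markers passed in 1 of 10, with list means from 6.97 to 6.99 in WT and from 6.96 to 6.98 in KO188. This was Kdr (0.24, a call lost with the replicate block and without any 1 of 4 arrays, limma adjusted p up to 0.079). The mean was at or under the guide in 7 of 10 granulocyte, 9 of 13 lymphocyte and 5 of 10 endothelial markers. Il2rb (means 6.25 in WT and 6.51 in KO188) and Kdr (6.40 and 6.63) lay under it in both groups, so their changes have no reliable size.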

How the data were processed

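The authors' deposited table gives log2 values of 35556 probe sets on 6 arrays. Per the submitters' processing notes, RMA, Partek and Affymetrix Expression Console were used, with no version or order. No build is given in the sources used. RMA compresses dim values, so changes of dim genes are understated, and the array number limits precision. Array medians were 7.43 to 7.50.

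Probe sets were named from GEO's platform annotation: 21789 had 1 symbol, 1621 several and 12146 were not listed. By Entrez identifier 21698 of the former matched RefSeq (GRCm38.p6). The probe set with the highest 6-array mean per gene gave 19938 genes. Groups came from the sample titles. KO188 minus WT was tested with limma 3.58.1 (R 4.3.3; lmFit, eBayes without trend, Benjamini-Hochberg over all genes, threshold 0.05), after a trial on simulated data; pairs of genes were compared with exact permutation tests (SciPy 1.17.1). Motifs were searched in the 250 bases before RefSeq starts.

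The members and the 17 lists (180 entries) were chosen with earlier results of these data known. Named genes were all measured Gbp genes, called genes of the pathway lists with uncalled members needed for a role, the 5 genes nearest in profile (predicted genes skipped), and the 3 tested neighbours on each side of each cluster. Lists of stromal, macrophage, granulocyte, lymphocyte and endothelial markers served as checks, from which the markers named were picked after their values were seen.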

Additional observations from a re-analysis of the deposited data

Results flagged for a closer look

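Signal was seen in 2 probe sets that the comparisons leave out because their annotation names several Gbp genes. Neither can be assigned to 1 gene. The probe set annotated to Gbp2 and Gbp2b together read 10.47, 10.53 and 10.53 in the WT arrays and 12.71, 12.71 and 12.68 in the KO188 arrays, a difference of 2.19. The probe set of Gbp2b alone differed by 0.38. The probe set annotated to 6 symbols of the chromosome 5 cluster (Gbp4, Gbp6, Gbp8, Gbp9, Gbp10 and Gbp11) read 8.41, 8.22 and 8.11 in WT and 11.53 in each of the 3 KO188 arrays, a difference of 3.28. The 3 KO188 values are identical to every deposited digit, so the spread between those arrays is given as 0. No test was run on either.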

How the results depend on the processing

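Over 14 alternatives, of which leaving out tied genes was added after the data were seen, the 6 measured Gbp genes of the list stayed higher and past the limma test wherever they were tested. With dimmer genes left out 4 were tested and passed (Gbp5 and Gbp8 lay under the median level), and with tied genes left out also 4 (without Gbp3 and Gbp4). Their changes moved little, from 2.97 to 3.03 in Gbp3 and from 3.62 to 3.92 in Gbp4. Of 103 genes whose change is given in the text or that were called in the pathway lists, 77 kept their direction and their side of the threshold in every alternative. The sign turned in 12 of the 103, none of which passed on the 6 arrays as deposited. Median centring of the arrays turned it in Ifnar2 (-0.017), Il27 (-0.030), Irf8 (-0.033), Irgc1 (-0.019) and Jak1 (-0.027), and quantile normalization in Atl3 (0.022), Gtf2b (0.0035), Il27 (-0.042), Irf8 (-0.027), Irgc1 (-0.0066) and Pkn2 (0.014). With 1 array left out the changes ran across 0 in Abcg3 (-0.066 to 0.029), Atl3 (-0.027 to 0.0027), Gtf2b (-0.035 to 0.051), Il1b (-0.015 to 0.10), Irgc1 (-0.00070 to 0.041), Nlrc4 (-0.053 to 0.025) and Pycard (-0.061 to 0.037). Of the 87 measured pathway genes 52 passed, 40 as higher and 12 as lower, beside 29.8% of all tested genes passing in either direction. With 1 array left out 46 to 51 passed. Of the 52, 18 came from the list of other interferon-stimulated genes, made with earlier results of these data known. The count is therefore a description only. Over all genes 5937 passed, with 4835 to 5553 when 1 array was left out. Each array centred on its median gave 6512, of which 30.8% were higher in place of 44.5%. With the replicate number as a block, 5019 genes, 48 pathway genes and 6 Gbp genes passed. Same-numbered arrays did not deviate together across genes as a whole (r = 0.02, 0.01 and -0.03). This cannot exclude a pairing with a small effect or an effect in few genes, and the labels give only a number. The guide to unexpressed genes limits the sizes given for Gbp4, Gbp5 and Gbp2b.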
